A study of Homo sapiens with 6 samples.

Results

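The comparison described here sets MDA-MB-231 cells transfected with the hsa-miR-214-3p precursor against the same cells transfected with a scrambled microRNA. MDA-MB-231 is an established human breast cancer cell line of mesenchymal, triple-negative type. The comparison takes 4 of the 6 arrays of the series, 2 per group, chosen by their titles, and all genes measured on them. The methods give 30 nM for every precursor, including the scrambled one, and the series description places RNA collection at 72 h. Every group shared the cell line, the medium, the lipid reagent and the reverse transfection, so that no untransfected cells entered the comparison. Nothing in the labels says whether the 2 replicates of a group came from separate cultures, so the p-values measure the spread between these samples, which may be technical. The remaining 2 arrays, of cells given the hsa-miR-205-5p precursor, entered the fit to estimate the spread and are otherwise shown beside the genes they bear on.

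A microRNA is loaded into an Argonaute protein and pairs with messenger RNAs, mostly in their 3′ untranslated regions, through a short stretch near its 5′ end called the seed. Paired messages are destabilized or translated less, so that direct targets tend to fall in a profile of RNA levels, while rises and many falls come later through other genes. miR-214 is made from DNM3OS, a long non-coding RNA, and is known for roles in bone, muscle, fibrosis and several cancers. The mature sequences below are RefSeq's (GRCh38.p14), with the seed, bases 2 to 8, in capitals. The first is the miRNA transfected here, which lies on the minus strand of chromosome 1 at chr1:172138816-172138837. The next pair are the other human miRNAs that carry the same seed among 2370 mature names. They are followed by the miRNA of the other precursor in the series and by the opposite arm of the miR-214 hairpin, whose seeds differ.
hsa-miR-214-3p: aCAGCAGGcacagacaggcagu
hsa-miR-3619-5p: uCAGCAGGcaggcuggugcagc
hsa-miR-761: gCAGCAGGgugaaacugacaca
hsa-miR-205-5p: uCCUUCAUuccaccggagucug
hsa-miR-214-5p: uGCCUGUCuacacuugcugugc

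Between 35.4% and 42.2% of the spots on each array were well above background, and no spot was saturated. All arrays lay on 1 slide with 1 scan time, and position on that slide and group cannot be told apart. Values below are normalized log2 signals, that is, log2 of the processed signal minus the array's 75th percentile, and a log2 fold change is the mean of the hsa-miR-214-3p arrays minus the mean of the scrambled control arrays. The root mean square difference between arrays over all kept probes came to 0.34 for the pair of hsa-miR-214-3p replicates and to 0.67 for the control pair. The hsa-miR-214-3p arrays lay at 0.58 and 0.63 from scrambled control replicate 2, less than the distance within the control pair. From scrambled control replicate 1 they lay at 0.75 and 0.78. VIM, CD44, AXL, ZEB1 and CAV1, markers of mesenchymal breast cancer cells, were well above background on all 4 arrays, as were ERBB2 and the epithelial genes CDH1, EPCAM, GATA3, KRT8, KRT18, KRT19 and KRT14, whereas SPARC, ESR1, PGR, FOXA1, KRT5 and TP63 were not on any of them, and VIM differed between the groups by a log2 fold change of −0.06. Among markers of other cell types, the leukocyte gene CD3E and the endothelial genes CDH5 and VWF were not well above background on any of the 4 arrays. The monocyte gene CD14 was on all 4, with mean signals of 1.56 with hsa-miR-214-3p and 1.04 in the control, the endothelial gene PECAM1 was on 1 hsa-miR-214-3p array and on both control arrays, and the leukocyte gene PTPRC was on 1 control array. The part of these markers in the results was not tested.

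Of 11974 genes tested, 243 (2.03%) were called lower with hsa-miR-214-3p and 131 (1.09%) were called higher, at a limma adjusted p under 0.05 and at least 2-fold. Of these, 221 lower and 122 higher genes were well above background on at least 1 array of each group. Over them the median log2 fold change was −1.40 and 1.30, against −0.01 over all genes, and 42 of the lower but 7 of the higher ones changed at least 4-fold. Lower calls made up 65.0% of the total, a share that rose to 84.9% with another background correction (normexp) and to 86.3% when arrays were scaled to their median, which moved the median of all genes to −0.18. At an unadjusted p under 0.05 with the same 2-fold limit, 495 genes (4.13%) were lower and 319 (2.66%) higher. The adjusted p-values lay close to the threshold, the smallest being 0.0251. After any single array other than scrambled control replicate 2 was left out, limma called 0 genes in either direction, while between 450 and 565 genes were lower and between 272 and 387 higher without adjustment. Without scrambled control replicate 2, 496 genes were called lower and 655 higher. This limit applies to every call named below. Among the called genes named in the comparisons below, BBC3, CLDN3, EFEMP1, FST, KPNA6, LOX, NDUFA6, NR1D1, NR2F1, NUP35, QKI and UBE2V1 were not called under either normexp or median scaling. Under normexp alone of the pair, ALDH1L1, ARHGAP25, FZD5, HNRNPR, IL24, LEF1, NLRC5, PANK1, RAB4B, SCARNA23, SNORA11D, SNORA30, SPOPL, TET1, TM7SF2, TMEM150A and VDR were not called, and under median scaling alone COL5A1, EMC10, LOXL2 and TNNC1 were not. With quantile normalization KPNA6, PSMA1 and SNORA30 were not called, nor were KPNA6, NDUFA6, NUP35, PSMA1, SNORA30 and VDR in the authors' log2 table. Among all named genes, 2 calls ended with the percentile taken over detected probes and 2 with limma's trend and robust options. The median over a gene's probes ended 3.

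**Figure D1:**
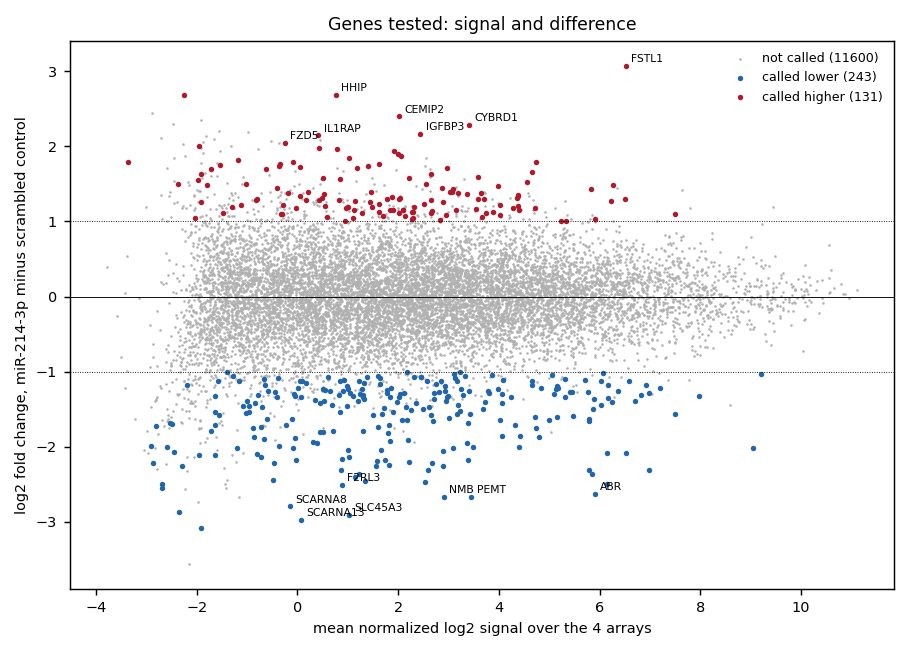
Each point is 1 of the 11974 genes tested, with its mean normalized log2 signal over the 4 arrays on the x axis and its log2 fold change (hsa-miR-214-3p minus scrambled control) on the y axis. The 243 genes called lower are blue and the 131 called higher are red, dotted lines mark 2-fold, and FSTL1 at 3.08 and SCARNA13 at −2.98 are the called genes farthest from 0 among those well above background on all 4 arrays.

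Called genes were ranked by size among those well above background on all 4 arrays whose groups did not overlap. SCARNA13, a small RNA of the Cajal body, had normalized log2 signals of −1.46 and −1.38 on the hsa-miR-214-3p arrays and of 1.61 and 1.51 on the control arrays, a log2 fold change of −2.98 (standard error 0.15, limma adjusted p = 0.0251, n = 2 per group). SLC45A3, a membrane protein of the solute carrier class, fell from 2.84 and 2.09 to −0.34 and −0.53. The ranking required groups without overlap, and in both genes the distance between groups was several times the distance within them.
NMB, which encodes the peptide neuromedin B, had signals of 1.50 and 1.64 against 4.18 and 4.30 in the control (log2 fold change −2.67). F2RL3, the thrombin receptor PAR4, had −0.29 and −0.45 against 2.35 and 1.93 (−2.51). CSF1, the growth factor of macrophages, had 1.19 and 1.40 against 3.89 and 3.63 (−2.47), and its 2 other probes had log2 fold changes of −2.17 and −2.07. ABR, a regulator of small GTPases, had 4.56 and 4.61 against 7.40 and 7.03 (−2.63, standard error 0.19, limma adjusted p = 0.0251), and its other probe had −1.74.
PEMT, which methylates phosphatidylethanolamine to phosphatidylcholine, had signals of 2.10 and 2.15 against 4.94 and 4.63 (−2.67). PLA2G15, a lysosomal phospholipase, had 4.69 and 4.64 against 7.23 and 6.84 (−2.37). PANK1, which starts the synthesis of coenzyme A, and ADSS2, which commits inosine monophosphate to the synthesis of AMP, had log2 fold changes of −2.45 and −2.32. For PANK1 the control arrays lay at 0.99 and 0.49 and for ADSS2 at 3.36 and 4.14, the widest control gaps among these enzymes.
ANKRD52, a regulatory subunit of protein phosphatase 6, UBE2J1, a ubiquitin-conjugating enzyme of the endoplasmic reticulum, and ZDHHC24, of the palmitoyltransferase family, completed the 15 largest falls together with SCARNA8 and SCARNA11, with log2 fold changes of −2.49, −2.40, −2.37, −2.79 and −2.45. Both hsa-miR-214-3p arrays lay below both control arrays in all 15, which the ranking required, by a gap of 1.91 to 2.88. All genes called lower had groups that did not overlap, and so did 30.7% of all genes tested.

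The small Cajal body RNAs were the gene group with the highest share of lower calls among the symbol families with at least 15 tested genes. These short RNAs reside in Cajal bodies, nuclear structures where they guide the chemical modification of the small nuclear RNAs of the spliceosome. Of the 18 tested, 9 (50%) were called lower and 0 higher (limma), against 2.03% lower over all genes, and the median log2 fold change was −1.28. The control replicates differed from each other by a median of 0.35 over these RNAs, and the median over the 4 pairs of a hsa-miR-214-3p array and a control array ranged from −1.51 to −1.04.
All called members are named, some of them chosen after their values were seen. Besides the 3 among the largest falls, SCARNA16 had signals of 0.67 and 0.20 against 2.87 and 2.51 in the control, a log2 fold change of −2.25, and its other probe had −2.44. SCARNA14 had 1.13 and 1.09 against 3.45 and 3.17 (−2.20). SCARNA20 had 2.00 and 2.16 against 4.27 and 3.93 (−2.02).
SCARNA23, SCARNA9 and SCARNA18 completed the called members, with log2 fold changes of −1.99, −1.80 and −1.22. The hsa-miR-205-5p arrays, set against the same control, are given beside it. SCARNA13 lay there at −0.15 and −0.07, SCARNA8 at −0.71 and −0.70 against 1.48 and 1.00 in the control, SCARNA11 at 1.58 and 1.22 against 2.73 and 2.39, SCARNA16 at 1.49 and 1.37 and SCARNA23 at −0.63 and −0.99 against 0.75 and 0.52. SCARNA14 lay at 2.61 and 2.64 and SCARNA20 at 3.16 and 3.12. These RNAs thus lay below both control arrays with hsa-miR-205-5p too, and above their hsa-miR-214-3p values. For SCARNA13, SCARNA8, SCARNA11 and SCARNA16 the precursors differed by −1.31, −0.85, −1.29 and −0.99 (limma adjusted p = 0.00533, 0.0406, 0.0116 and 0.0289), less than the fall from the control. SCARNA9, at 2.55 and 1.89 against 2.47 and 1.91, overlapped the control with hsa-miR-205-5p, and SCARNA18, at 2.80 and 2.79 against 2.61 and 2.34, lay above it. Not every member was called. SCARNA2, SCARNA5, SCARNA7 and SCARNA12 had log2 fold changes of 0.17, −0.04, −0.03 and −0.27, with limma adjusted p-values from 0.388 to 0.955, and SCARNA22, at −1.33, missed the threshold (0.106). In all, 17 of 18 members lay below 0, although with normexp SCARNA5 and SCARNA7 turned above 0 and SCARNA2 below it.
Most of these RNAs are cut from introns or non-coding hosts, so the signals of the genes that span them in the RefSeq table were set beside theirs. None of the spanning genes that were tested was called. CHD4, a chromatin remodeler that spans SCARNA11, had a log2 fold change of 0.42, HAUS6, a spindle protein gene that spans SCARNA8, had 1.01 (limma adjusted p = 0.13), and USP32, a deubiquitinase gene that spans SCARNA20, had 0.38. TIPIN, a replication fork protein gene that spans SCARNA14, came closest to a fall with −0.82 (limma adjusted p = 0.0632). SNHG20 and SEC14L1, which span SCARNA16, had −0.51 and 0.42. TMEM167A, POLA1 and CEP295, which span SCARNA18, SCARNA23 and SCARNA9, had −0.49, −0.48 and −0.27. Strand was not considered in pairing them, and the host of SCARNA13 was not tested.
Of 85 tested box H/ACA RNAs, which guide pseudouridylation, 2 were called lower (2.35%, near the 2.03% of all genes) and 0 higher (limma), with a group median of −0.19 and 7 lower at an unadjusted p under 0.05 with the 2-fold limit. SNORA11D had a log2 fold change of −1.29, and SNORA30, too dim to be measured with hsa-miR-214-3p, was at least 1.78-fold lower. Of 84 box C/D RNAs, which guide methylation, 0 were called (limma), and at an unadjusted p under 0.05 with the 2-fold limit 1 was lower, SNORD121A, which was too dim to be measured with hsa-miR-214-3p. SNORD104 had a log2 fold change of −0.83 (limma adjusted p = 0.0588). Whether the probes read the mature short RNAs or longer precursors was not tested.

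**Figure D2:**
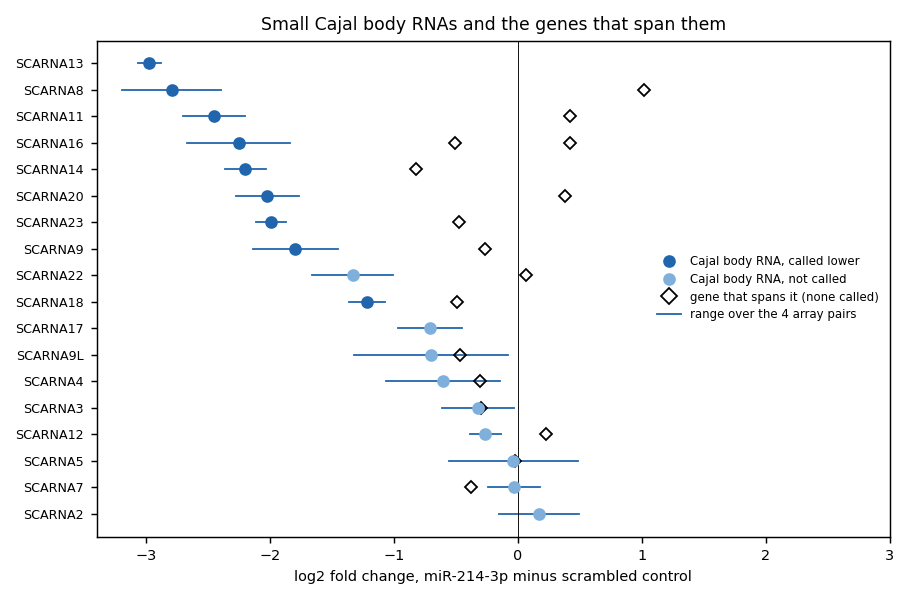
Log2 fold changes (x axis, hsa-miR-214-3p minus scrambled control) of the 18 tested small Cajal body RNAs, with lines for the range over the 4 array pairs, and of the genes that span them (diamonds, where tested). The 9 RNAs called lower (dark blue) lie between −2.98 and −1.22, while the spanning genes of called RNAs lie between −0.82 and 1.01.

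FSTL1, a secreted glycoprotein of the follistatin-like class, had normalized log2 signals of 8.01 and 8.10 with hsa-miR-214-3p and of 4.88 and 5.09 in the control, a log2 fold change of 3.08 or 8.43-fold (standard error 0.16, limma adjusted p = 0.0251), the largest rise among the genes ranked. Its control arrays differed by 0.21.
HHIP, a membrane-anchored protein that binds and restrains Hedgehog ligands, had 2.12 and 2.09 against −0.73 and −0.43 (2.69). CEMIP2, a cell-surface hyaluronidase, had 3.39 and 3.04 against 0.51 and 1.12 (2.40). IGFBP3, the main binding protein of insulin-like growth factors in plasma, had 3.54 and 3.51 against 1.13 and 1.58 (2.17). In each of these genes the hsa-miR-214-3p arrays lay closer together than the control arrays.
IL1RAP, the shared co-receptor of the interleukin-1 family, had 1.50 and 1.48 against −0.78 and −0.53 (2.15), while its other probe had 1.03 and was not called. FZD5, a Wnt receptor, had 0.77 and 0.78 against −1.46 and −1.08 (2.05). CYBRD1, a ferric reductase of the plasma membrane, had 4.57 and 4.52 against 2.04 and 2.49 (2.29), and its other probe had 1.06.
TNNC1, the calcium-binding troponin of slow and cardiac muscle, rose to 1.42 and 1.40 from control values of −1.03 and −0.10, the widest control gap in this set (log2 fold change 1.97, limma adjusted p = 0.0459). SYT15, of the synaptotagmin family, RAB11FIP1, an effector of recycling endosomes, and SWAP70, an actin-binding signalling protein, had 1.93, 1.89 and 1.97. MARCHF3, a membrane-bound ubiquitin ligase, and SPOPL, a substrate adaptor of cullin ubiquitin ligases, had 1.87 and 1.82, followed by MEGF6 at 1.84 and EMC10, a subunit of the complex that inserts membrane proteins into the endoplasmic reticulum, at 1.79.

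The hsa-miR-205-5p precursor shares its control arrays with hsa-miR-214-3p, so a control array that is off shows in both differences. The hsa-miR-205-5p arrays were therefore set beside each leading gene, and the precursors were compared with each other directly (limma, same fit), in which 1099 genes (9.18%) were lower and 1352 (11.3%) higher with hsa-miR-214-3p.
HHIP had 2.13 and 2.06 with hsa-miR-205-5p, and the precursors differed by a log2 fold change of 0.01 (limma adjusted p = 0.977). FZD5 at 0.77 and 0.85, IL1RAP at 1.81 and 1.76 and SWAP70 at 1.43 and 1.55 also lay near their hsa-miR-214-3p values, with differences of −0.04, −0.30 and 0.27 (limma adjusted p = 0.888, 0.209 and 0.274). For these genes a difference between the precursors was not detectable with 2 arrays each, whereas FSTL1 at 7.17 and 7.22 was lower there than with hsa-miR-214-3p by a log2 fold change of 0.86 (limma adjusted p = 0.0158).
IGFBP3 had 1.43 and 1.44 with hsa-miR-205-5p, within its control range, SYT15 had 0.76 and 0.77, and MARCHF3 had 0.61 and 0.78. TNNC1 had −2.66 and −2.80 there, with neither array well above background, so that only a bound could be given, at least 8.14-fold higher with hsa-miR-214-3p (limma adjusted p = 0.00383). With hsa-miR-205-5p, 10 of the 15 largest rises lay above both control arrays, 4 below both and 1 neither. Of the 15 largest falls, 8 lay below both control arrays there, 2 above both and 5 neither. Among the falls, NMB, ABR, F2RL3, SLC45A3 and PLA2G15 differed between the precursors by −3.14, −2.46, −2.93, −3.03 and −2.28, each with a limma adjusted p of 0.00383 or 0.00407. CSF1 differed between them by −1.05 (limma adjusted p = 0.0126), less than from the control, and for PANK1 the difference of −1.14 between the precursors did not pass the threshold (0.0612).

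**Figure D3:**
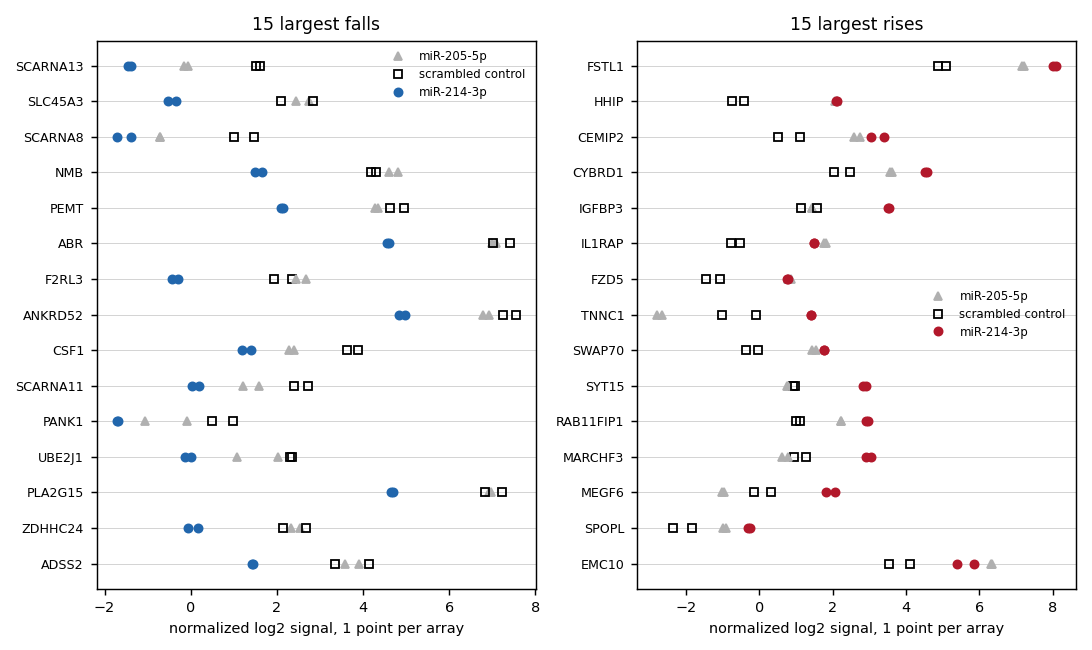
Normalized log2 signal of each array (x axis, 1 point per array) for the 15 genes with the largest fall (left) and the 15 with the largest rise (right), with hsa-miR-214-3p as filled circles, scrambled control as open squares and hsa-miR-205-5p as grey triangles. No circle reaches a square in any row, a condition of the ranking. The triangles of HHIP, FZD5 and SWAP70 lie beside the circles and those of IGFBP3 and SYT15 beside the squares.

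Extracellular matrix genes were the list with the highest median log2 fold change of the 71 lists examined. The list holds collagens, laminins, thrombospondins, fibulins and lysyl oxidases, the scaffold that cells secrete and its cross-linking enzymes. Of 33 tested, 4 were called higher (12.1%, against 1.09% of all genes) and 0 lower (limma), with a median of 0.46, and 28 lay above 0. On 24 of the 33, both hsa-miR-214-3p arrays lay above both control arrays, which held for 27.7% of all genes. The control replicates themselves differed by a median of 0.30 over these genes, and the median of the list lay between 0.25 and 0.56 over all alternative settings.
COL5A1, a fibrillar collagen chain, had signals of 7.02 and 6.99 against 5.72 and 5.31 (log2 fold change 1.49, standard error 0.21, limma adjusted p = 0.037), with 0.69 for its other probe. LOX, which cross-links collagen and elastin, had 2.46 and 2.38 against 1.14 and 1.11 (1.30), and its relative LOXL2 had 6.88 and 6.85 against 5.69 and 5.48 (1.28). EFEMP1, a fibulin, had 5.81 and 5.85 against 4.94 and 4.71 (1.01). When arrays were scaled to their median, 0 of the list's genes passed adjustment (limma), and in the scaling used here 1 was lower and 6 were higher unadjusted. On the hsa-miR-205-5p arrays LOX lay at 2.29 and 2.23, LOXL2 at 7.20 and 7.17 and EFEMP1 at 5.92 and 5.83, with differences between precursors of 0.16, −0.32 and −0.04 (limma adjusted p = 0.423, 0.174 and 0.853), while COL5A1 was 1.01 higher with hsa-miR-214-3p (0.0197).
In the TGF-beta and BMP pathway, whose ligands signal through SMAD proteins, 2 of 29 genes were called higher (6.90%, against 1.09% of all genes) and 0 lower (limma), with a median of 0.30. FST, which traps activins, was 1 of them, with 5.06 and 5.05 against 3.44 and 3.96 (1.35, limma adjusted p = 0.0472).
Of 26 integrin and focal adhesion genes 0 were called (limma, also at an unadjusted p under 0.05 with the 2-fold limit), with a median of 0.07. Of the 12 tested genes of epithelial-mesenchymal transition 0 were called (limma, also at an unadjusted p under 0.05 with the 2-fold limit), and SNAI1, the transcription factor Snail, had 0.89 (limma adjusted p = 0.0512). The median of that list was 0.15 and turned to −0.06 with normexp and −0.01 with median scaling. CLDN3, a tight junction claudin, was the only call among 28 epithelial junction genes, at 1.13.

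**Figure D4:**
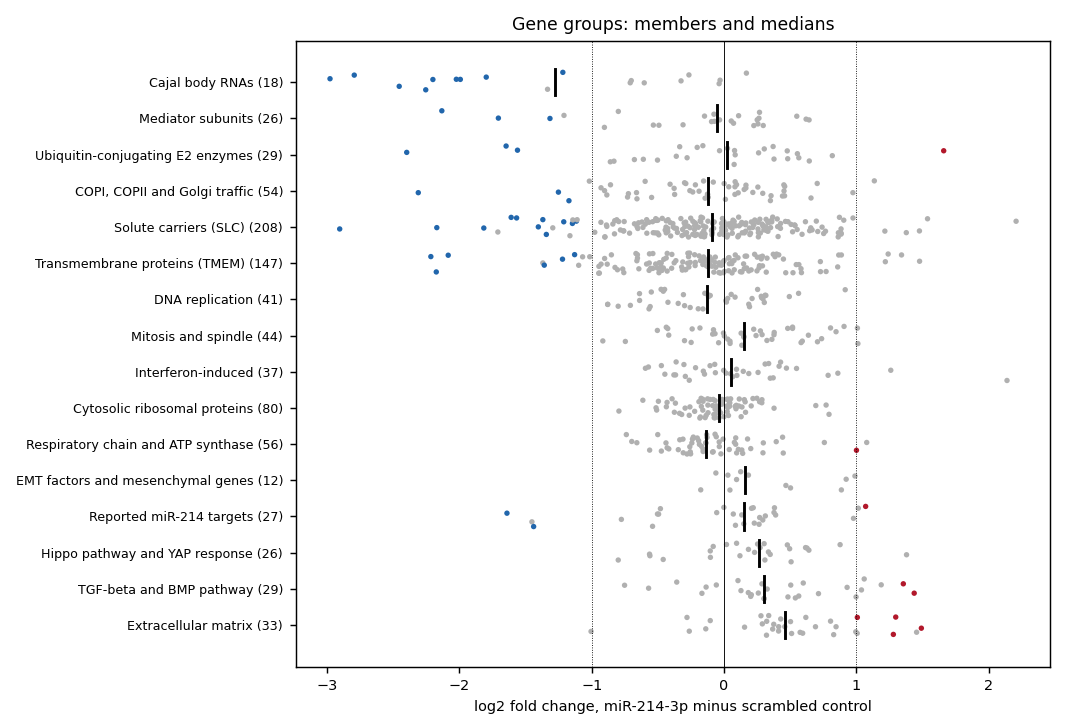
Log2 fold change (x axis, hsa-miR-214-3p minus scrambled control) of each tested member of 16 gene groups, with the number tested in brackets, black bars at the medians, blue for genes called lower and red for genes called higher. The Cajal body RNAs spread to the left with a median of −1.28, and the extracellular matrix genes lie mostly to the right with a median of 0.46.

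Calls in the Mediator, solute carrier and TMEM families were all lower, with medians near 0. The Mediator complex bridges transcription factors and RNA polymerase II. Of its 26 tested subunits, 3 were called lower (11.5%, against 2.03% of all genes) and 0 higher (limma), with a median of −0.05. MED20 had signals of 0.02 and −0.12 against 2.05 and 2.12 (log2 fold change −2.13), MED19 had 3.43 and 3.48 against 5.26 and 5.07 (−1.71), and MED24 had 2.61 and 2.67 against 4.18 and 3.73 (−1.32). With hsa-miR-205-5p MED20 lay at 2.34 and 2.67 and MED19 at 5.33 and 5.06, while MED24 lay at 2.97 and 3.10.
Genes whose symbol begins with SLC, mostly membrane transporters, had 11 lower calls and 0 higher among 208 tested (5.29%, limma), with a median of −0.09, against 2.03% lower over all genes. After SLC45A3 the largest falls were those of SLC66A2, SLC68A1 and SLC10A3, at −2.17, −1.82 and −1.61. At an unadjusted p under 0.05 the split was 14 lower and 4 higher. Genes whose symbol begins with TMEM, a mixed set of membrane proteins, had 6 lower calls and 0 higher among 147 (4.08% lower, against 2.03% of all genes, limma), led by TMEM150A at −2.22, with 1 of its hsa-miR-214-3p arrays well above background, TMEM161B at −2.17 and TMEM258, a subunit of the oligosaccharyltransferase, at −2.08, and up to 3 higher ones in other settings that kept all arrays.
The E2 enzymes, which carry activated ubiquitin to its ligases, held calls in both directions. UBE2J1, UBE2H at −1.65, with −0.60 for its other probe, which was not called, and UBE2S, which extends chains for the anaphase-promoting complex, were called lower, and UBE2V1, a partner subunit of chain building, was called higher among 29 tested (10.3% lower and 3.45% higher, against 2.03% and 1.09% of all genes, limma). UBE2S had 6.71 and 6.73 against 8.53 and 8.04 (−1.56) and UBE2V1 had 5.73 and 5.22 against 3.65 and 3.99 (1.66), with 1.94 for the other UBE2V1 probe. UBE2V1 lay still higher with hsa-miR-205-5p, at 5.99 and 6.14, and it was not called higher under normexp or median scaling. UBE2J1 had a standard error of 0.32, and the hsa-miR-205-5p arrays that share in the estimate lay at 2.03 and 1.09.

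**Figure D5:**
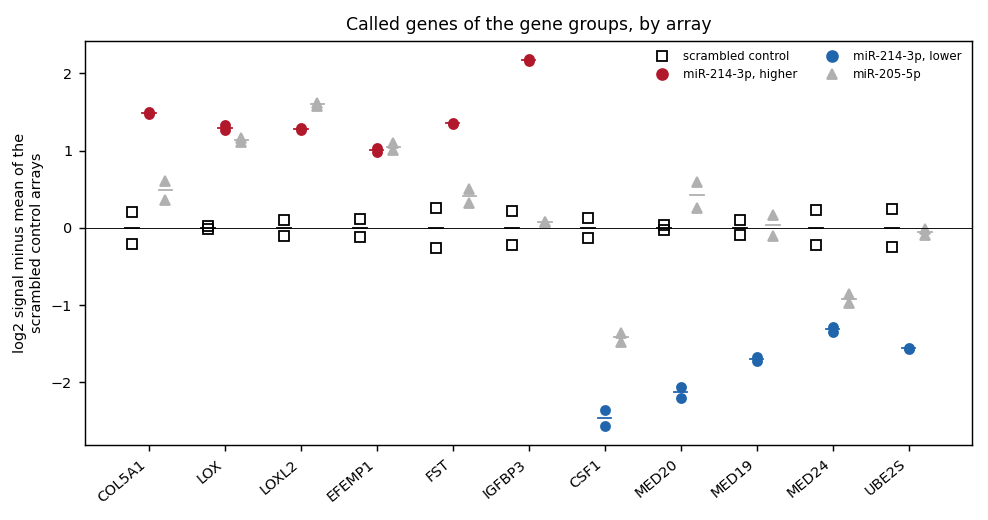
Log2 signal of each array minus the mean of the scrambled control arrays (y axis) for 11 called genes, with scrambled control as open squares, hsa-miR-214-3p as filled circles (red where higher, blue where lower), hsa-miR-205-5p as grey triangles and short bars at group means. Circles and squares are apart for every gene, and the triangles of LOX, LOXL2 and EFEMP1 lie near or above the circles.

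Among genes of the membrane and secretory system, 3 of 54 genes of coat proteins and Golgi traffic were called lower (5.56%, against 2.03% of all genes) and 0 higher (limma), with a median of −0.12. SCAMP3, a secretory carrier membrane protein, had 5.81 and 5.86 against 8.41 and 7.88 (−2.31), TMED5, a cargo receptor, had −1.25 with −1.23 for its other probe, and ARF5, a small GTPase that recruits coats, had −1.17. STX6, a syntaxin of the trans-Golgi network and endosomes, had −0.55 and −0.24 against 1.24 and 1.58 (−1.81). The small GTPases RAB37 and RAB4B had −1.58 and −1.12, the only calls among 47 RAB genes. The list of lysosomal genes, which does not hold PLA2G15, had 0 calls among 50 tested (limma), with 2 higher at an unadjusted p under 0.05, NPC1, the cholesterol exporter of the lysosome, at 1.41 (limma adjusted p = 0.0532) and the protease CTSC at 1.16 (0.0556), both of which passed adjustment in some settings.
ARHGAP25, a GTPase-activating protein of Rac, was also called lower. With hsa-miR-214-3p neither array measured ARHGAP25 well above background, and its values of −3.05 and −3.87 there against −0.44 and −0.33 gave a bound of at least 3.05-fold lower. Such a bound sets the mean of the brighter group against the dimmest signal that still counted as well above background on each array of the other group, or the probe's own where that was higher. In total, 22 of the lower genes were not well above background on either array given hsa-miR-214-3p, and 9 of the higher ones on either control array.
TM7SF2, a sterol reductase of cholesterol synthesis, and SCAP, the escort of the sterol-sensing transcription factors, had −1.34 and −1.11, 2 of 23 cholesterol genes, whose median was 0.01. RPIA, which makes ribose 5-phosphate in the pentose phosphate pathway, had 3.16 and 3.11 against 4.98 and 5.00 (−1.86, limma adjusted p = 0.0251), the only call among 28 genes of that pathway and of glycolysis, and it lay at 3.22 and 3.24 with hsa-miR-205-5p too. ALDH3A1, an aldehyde dehydrogenase, had 0.94 and 1.00 against 2.73 and 2.63 (−1.71) and was lower still with hsa-miR-205-5p, at −0.45 and −0.48. ALDH1L1, which oxidizes formyl-tetrahydrofolate, was at least 2.82-fold higher, its control arrays not being well above background. ABCC3, an efflux pump of conjugated compounds, fell by 1.57 on the log2 scale, while its other probe had −0.96 and was not called.

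The signalling lists held from 0 to 3 calls each, beside 2.03% lower and 1.09% higher over all genes. In the Wnt list of 27 genes, FZD5 was higher and LEF1, a transcription factor that binds beta-catenin, was lower at −1.09 (1.03 and 1.16 against 2.23 and 2.14). In the Notch and Hedgehog list of 23, HHIP was higher and LFNG, which adds sugars to Notch receptors, was lower at −1.62, with −0.79 for its other probe. Of 25 cytokine and NF-kB genes, CSF1 and IL24, a cytokine of the interleukin-10 family, were lower (limma), and IL24 lay at 3.15 and 3.13 with hsa-miR-205-5p against 0.30 and 0.24 with hsa-miR-214-3p and 1.44 and 1.61 in the control.
EGR1, an immediate early gene of MAPK signalling, had 4.03 and 4.12 against 5.41 and 5.10 (−1.18), the only call among 29 MAPK output genes. Among 27 nuclear receptors, VDR, which binds vitamin D, fell by 1.22 on the log2 scale, and NR2F1 and NR1D1, a repressor of the circadian clock, rose by 1.13 and 1.05 (limma). IGFBP3 was the only call among 11 genes of the insulin-like growth factor axis. The Hippo and PI3K lists held 0 calls among 26 and 33 genes (limma), with medians of 0.26 and −0.05, 1 higher Hippo gene at an unadjusted p under 0.05 and 0 such PI3K genes. In the Hippo list NF2, an upstream tumor suppressor, had 1.38 with control arrays at −0.45 and −1.41 (limma adjusted p = 0.098), and TEAD1, a partner of YAP, had 0.63.

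Of 41 DNA replication genes and 44 genes of mitosis and the spindle, 0 were called (limma), with medians of −0.13 and 0.15, and 0 of either list passed at an unadjusted p under 0.05 with the 2-fold limit. With 2.03% of all genes lower and 1.09% higher, lists of this size would hold few calls in any case. Leaving out scrambled control replicate 2 gave 6 higher mitosis genes. PRIM2, a primase subunit, at −0.80, and AURKB, a mitotic kinase, at 0.85, missed the threshold (limma adjusted p = 0.0656 and 0.0818). CCNE1, the cyclin that drives entry into S phase, was the only call among 19 cyclins and inhibitors of the G1 phase, with 4.53 and 4.53 against 5.86 and 5.65 (−1.23, limma adjusted p = 0.037).
BBC3, a BH3-only protein that promotes apoptosis under p53, was the only call of both the apoptosis list of 28 and the p53 list of 21, with 4.13 and 4.25 against 3.20 and 3.06 (1.06), and it lay at 4.66 and 4.72 with hsa-miR-205-5p. BBC3 was not called under normexp or median scaling. TET1, which oxidizes methylated cytosine, was the only call among 25 genes of Polycomb and DNA methylation, with 1.39 and 1.21 against −0.17 and −0.40 (1.58, limma adjusted p = 0.0279).
None of 80 cytosolic ribosomal protein genes, 76 mitochondrial ribosomal protein genes or 65 histone genes was called (limma), 0 of them also at an unadjusted p under 0.05 with the 2-fold limit, with medians of −0.04, −0.05 and 0.17. Among 56 genes of the respiratory chain NDUFA6 was called higher at 1.00, with a list median of −0.13, and among 46 proteasome genes PSMA1 was called lower at −1.01. Of 30 SR and hnRNP splicing genes HNRNPR was called higher at 1.22. Nuclear pore and transport genes had RANGAP1 at −1.04 and the importin KPNA6, with 2.77 and 2.68 against 3.84 and 3.62, called lower and NUP35 at 1.16 called higher among 53. Their other probes, at −0.86 for KPNA6 and 0.48 for NUP35, were not called.
Of 37 interferon-induced genes 0 were called (limma), with a median of 0.05, 9 (24.3%) with both hsa-miR-214-3p arrays below both control arrays and 11 (29.7%) with both above, near the 30.7% and 27.7% of all genes. MX2, an antiviral GTPase, was the 1 higher gene at an unadjusted p under 0.05, at 1.26 (limma adjusted p = 0.114). Of 28 genes of endoplasmic reticulum stress and 17 of the heat shock response 0 were called either (limma), with medians of 0.30 and 0.01, the former 0.01 under normexp, and the chaperone HSPH1, at −1.09 (limma adjusted p = 0.0692), was the 1 heat shock gene lower at an unadjusted p under 0.05. NLRC5, a transcriptional activator of HLA class I genes, was lower at −1.27 as the only call among 18 antigen presentation genes.

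Genes that other work has tied to miR-214 were examined as a list written from general knowledge, with earlier results of these data known. The list's member ARL2 is also among the targets that the study selected from these arrays. Of 27 tested, 2 were called lower (7.41%, against 2.03% of all genes) and 1 higher (3.70%, against 1.09%, limma), with a median of 0.15 and 10 members below 0. ARL2, a small GTPase of tubulin folding, had 4.12 and 4.24 against 5.92 and 5.72 (−1.64), and GALNT7, an enzyme of O-linked glycosylation, had 2.47 and 2.45 against 4.05 and 3.75 (−1.44). QKI, an RNA-binding protein, was higher at 1.07. EZH2, a Polycomb methyltransferase named after its value was seen, stood at 0.21 on the log2 scale (limma adjusted p = 0.735). A call requires a 2-fold change, so smaller changes in RNA, and changes in protein, are outside what was tested.
The study itself selected targets from these arrays, so their directions are not independent evidence. All 7 of the genes it tested by qRT-PCR as hsa-miR-214-3p targets were called lower, ARHGAP25, NMB, ABR, UBE2J1, ZDHHC24, SCAMP3 and PSIP1. PSIP1, a chromatin-binding coactivator, had 2.10 and 2.04 against 3.46 and 3.25 (−1.28), while its other probe had 0.98. Of 7 genes the study placed in a network of the transcription factor WT1, CSF1, ARL2, TSC22D1 at −1.39 and VDR were called lower, ST6GAL1, a sialyltransferase, had −1.83 (limma adjusted p = 0.0502), CDC73, with neither hsa-miR-214-3p array well above background, was at least 1.42-fold lower but was not called (0.389), and ANXA11 had 0.15. DNM3OS, the host transcript of miR-214, had 0.21 (limma adjusted p = 0.796).
The miRNA processing machinery held 0 calls among 16 genes (limma) and 1 higher gene at an unadjusted p under 0.05. TNRC6A, a partner of Argonaute, had 1.84 with a standard error of 0.56 (limma adjusted p = 0.141), its control arrays lying at 0.74 and 2.52.
Where a called gene had more than 1 probe, the probes often differed in size. Of 49 such genes called lower, 23 had every probe at least 2-fold lower and 11 had a probe above 0, and of 30 called higher, 18 had every probe at least 2-fold higher and 0 had a probe below 0. A further 3079 kept probes matched no symbol and are unnamed here, of which 23 were called lower and 25 higher, against 1.68% and 0.991% of all kept probes.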

How the data were processed

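RNA of MDA-MB-231 cells was labelled with Cy3 and hybridized to 1-colour Agilent SurePrint G3 arrays. Per the labels, spots were extracted with Agilent Feature Extraction 11.0, and the deposited scanner files hold processed signal intensity, already background-subtracted, with flags for each spot. The authors also deposited a table of normalized log2 values made in GeneSpring, whose kind of normalization is not given in the sources used here. Its sorted values were the same in every column, and it served as an alternative.

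After removal of control and outlier spots, the spots of each probe were averaged. Signals were taken as log2 of the processed intensity minus each array's 75th percentile. Of 50599 probes, 18464 were kept, for which some group had both of its arrays well above background, and 4 probes without a usable spot on some array were dropped. Accessions were matched to symbols with the RefSeq table of GRCh38.p14, which named 83.3% of the kept probes, and the probe with the highest mean stood for a gene. All 6 arrays were fitted with limma 3.58.1 (lmFit and eBayes, R 4.3.3) with 3 residual degrees of freedom, and p-values were adjusted by Benjamini-Hochberg over the kept probes. A gene was called at an adjusted p under 0.05 and at least 2-fold. The test was also run on simulated data, with means and spreads taken from these arrays. The precision is limited by the number of arrays, 2 per group.

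Genes were named by rule. The 15 largest rises and falls came from called genes well above background on all 4 arrays whose groups did not overlap. In each gene list up to 4 called members per direction were named or, with none called, the 2 with the lowest p. The genes the study tested by qRT-PCR as hsa-miR-214-3p targets or placed in its WT1 network were added, as was DNM3OS. Members, lists and tests were chosen with earlier results of these data known. Replicate numbers did not pair the samples, since the deviations of same-numbered hsa-miR-214-3p and control arrays correlated at −0.05. No slide or scan block could be fitted, as all arrays share both. Alternatives changed the background correction (normexp with an offset of 50), the scaling, the filter, the arrays fitted, the test and the choice of probe. Some genes and 1 gene group are not reported here.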

Additional observations from a re-analysis of the deposited data

How the results depend on the processing

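The main counts were 243 genes lower and 131 higher. They moved within 1.5 times under quantile normalization (252 and 142), the percentile taken over detected probes (306 and 142), the authors' log2 table (244 and 136), and a filter for signal on all 4 arrays compared (257 and 154). Normexp lowered the higher count to 37 and median scaling to 44, with 208 and 278 lower. Of the main calls, 142 lower and 33 higher genes remained with normexp, and 232 and 44 with median scaling. Without adjustment limma called 495 lower and 319 higher, and the methods' t-test called 352 lower and 197 higher unadjusted and 0 in either direction after Benjamini-Hochberg. With no filter on dim probes, and with the fit limited to the 4 arrays compared, limma called 0 in either direction, against 628 lower and 664 higher, and 513 lower and 315 higher, unadjusted. Leaving out 1 array gave 0 to 496 lower and 0 to 655 higher genes, with lower calls at 43.1% of the total without scrambled control replicate 2, where 233 of the 243 and 120 of the 131 genes remained. A fit with the replicate number as a block called 0 genes in either direction, and 503 lower and 320 higher unadjusted; the numbers do not pair these samples.
Of 2872 log2 fold changes of named genes recomputed under the 22 alternatives, 1798 stayed on the same side of the threshold and 1027 lost it. A further 34 gained it and 13 changed sign, all 13 of uncalled genes. Leaving out either hsa-miR-205-5p array gave the same counts as the fit limited to the 4 arrays compared, so these alternatives repeat that fit. With normexp ANXA11 had −0.0435, SCARNA2 −0.0641, SCARNA5 0.0748 and SCARNA7 0.0741, and with median scaling ANXA11 had −0.0121. Over the fits without 1 array, SCARNA2 ranged from −0.0237 to 0.361, SCARNA5 from −0.353 to 0.278, SCARNA7 from −0.138 to 0.0772, USP32 from −0.0655 to 0.817, DNM3OS from −0.116 to 0.539 and EZH2 from −0.233 to 0.648. The cause of these changes was not tested.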

Other observations

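Families grouped by the letters of their symbols, with at least 15 tested genes each, held further calls beside those described above. These families were chosen after their values were seen, and their shares stand beside 2.03% lower and 1.09% higher over all genes. Of 19 genes whose symbol begins with ARL, 2 were called lower (10.5%), ARL2, described above, and ARL6IP6 at a log2 fold change of −2.04. Of 24 genes with the letters TBC, mostly GTPase-activating proteins for RAB GTPases, 2 were called lower (8.33%), TBC1D13 at −1.26 and TBC1D22A at −1.19. Of 30 interleukin and interleukin receptor genes, 4 were called higher (13.3%) and 1 lower, IL1RAP and IL24 among them. IL7R, the receptor of interleukin-7, had 1.45. IL21R and IL17D were too dim to be measured in the control and were at least 2.77-fold and 2.16-fold higher. Of 20 DUSP symbols, dual-specificity phosphatases, 2 were called higher (10%), DUSP26 at 1.74 and the pseudogene DUSP5P1 at 1.39.

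The autophagy receptor NBR1 was lower at −1.27, with 4.69 and 4.85 on the hsa-miR-214-3p arrays against 5.91 and 6.16 in the control. It was the only call among 33 autophagy genes (3.03% lower, against 2.03% of all genes). KIF17, a kinesin motor, was higher at 1.18, the only call among 23 kinesins (4.35% higher, against 1.09% of all genes). Among 327 ZNF genes 2 were called lower (0.612%) and 1 higher (0.306%), shares below the 2.03% and 1.09% of all genes. They were ZNF252P at −1.03, ZNF879, which was too dim to be measured with hsa-miR-214-3p, and ZNF367 at 1.22. MIR3681HG, a microRNA host transcript, was lower at −1.07. Of 510 long non-coding RNAs, 7 were called lower (1.37%) and 2 higher (0.392%), and of 11023 protein-coding genes 223 were lower (2.02%) and 127 higher (1.15%). Of the calls given in these observations and not above, those of DUSP5P1, IL17D, KIF17 and ZNF367 ended under both normexp and median scaling, those of DUSP26, IL21R, MIR3681HG, TBC1D22A and ZNF879 ended under normexp, and that of IL17D also in the authors' log2 table.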
